A study of Homo sapiens with 12 samples.

Results

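Interferon-stimulated genes are the genes that cells switch on when interferon binds its receptor. A list of 57 of them, picked by gene name with earlier results of these data known, was followed in the human skin squamous cell carcinoma lines A431 and HSC-1, both established in culture. Of the 57 genes, 39 had a named probe set and 37 of those passed the level filter described below. GBP5 and RSAD2 had a probe set but did not pass it. The other 18 are not analysed here: CMPK2, GBP1, GBP2, IFI16, IFI27, IFI6, LGALS3BP, MX1, OAS1, OAS2, OAS3, PARP9, PARP10, PARP12, PARP14, STAT2, TAP1 and ZNFX1. The study set A431 and HSC-1 cells given the vehicle DMSO against the same lines given the drug everolimus at 100 nM, all for 72 h. Everolimus is related to rapamycin and blocks the growth-promoting kinase complex mTORC1. Each of the 4 groups had 3 arrays. No label names an interferon treatment, so the levels are those of cells without added interferon as far as the labels say. The labels do not tell whether the arrays of a group were separate cultures, so the errors cover the spread between arrays only, which may be technical.

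Type I and type III interferons signal through JAK kinases to a transcription factor complex that holds STAT2 and IRF9 and binds the interferon-stimulated response element in the promoters of its targets. Interferon gamma acts through gamma-activated sites, and IRF1, itself a target, carries part of that response. The products detect viral RNA and DNA, block translation, tether or trap virus particles, attach the ubiquitin-like protein ISG15 to other proteins and feed back on the pathway. In tumour lines a set of these genes can be active with no added interferon.

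The deposited values were log2 levels of 53617 probe sets, and the 12 array medians lay between 4.34 and 4.39. No detection flags came with them, so a level at or below the median of its own array is marked here as near background, where the size of a difference depends on that background. The level filter asked for 3 or more of the 12 arrays above their median and kept 10613 of 14884 named genes. Within a group the arrays correlated at 0.989 to 0.992, and across the lines at 0.955 to 0.962. The 6 squamous keratinocyte markers with a probe set (KRT5, KRT14, SFN, DSG3, PKP1 and TRIM29, of 10 listed) lay above the median on all 12 arrays. Of the leukocyte markers 4 of 8 had a probe set. LYZ lay at or below the median on all 12 arrays and NKG7 above it on all 12, TYROBP lay near it, and CD14 was lower in HSC-1 (-0.40 ± 0.14), where all its arrays were near background. Of 6 fibroblast markers 2 had a probe set: DCN was near background on all 12 arrays, and LUM, at 4.89 ± 0.05 in A431 with DMSO and 2.85 ± 0.12 in HSC-1 with DMSO (SD, n = 3), was lower in HSC-1 (-2.05 ± 0.12), in the same direction as most members. The 3 endothelial and 3 melanocyte markers with a probe set did not pass the filter, and none of the 3 plasmacytoid dendritic cell markers had one. The part of such cells in the results was not tested.

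The promoter windows of the members show what they share in sequence. RefSeq windows (GRCh38.p14), each from 250 bases before to 50 after a start site, were held for 45 of the 57 genes. The core of the response element, GAAANNGAAA read on either strand, occurred in a window of 32 of these 45 genes (71.1%), against 4.38% of all 27305 genes in the table and 3.46% of the 8089 tested genes with a window. Counted by window, it was in 37 of 61 member windows (60.7%) and in 3.57% of all 35116. The core of the gamma-activated site, TTCNNNGAA, which reads the same on both strands, occurred in 16 of the 45 genes (35.6%), against 9.38% of all genes. The motifs can overlap each other, and the windows of DTX3L and PARP9 share bases. A match is only these letters in this window and does not show that a factor binds. 8 windows that the results turn on are given 5′ to 3′ in the direction of the gene, with each GAAANNGAAA match, or its complement, in capitals. BST2, GBP4, IFI44, SAMD9L and DDX60 are shown for their measured differences between the lines, SAMD9 is the neighbour of SAMD9L, IFITM1 went the opposite way, and EIF2AK2 did not pass.
BST2, chr19:17405581-17405880, minus strand: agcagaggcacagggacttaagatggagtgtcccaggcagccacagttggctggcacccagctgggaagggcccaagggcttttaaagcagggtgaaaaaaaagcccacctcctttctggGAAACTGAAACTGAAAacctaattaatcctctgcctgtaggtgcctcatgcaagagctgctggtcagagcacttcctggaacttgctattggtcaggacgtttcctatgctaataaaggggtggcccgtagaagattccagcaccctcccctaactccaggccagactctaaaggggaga
GBP4, chr1:89198893-89199192, minus strand: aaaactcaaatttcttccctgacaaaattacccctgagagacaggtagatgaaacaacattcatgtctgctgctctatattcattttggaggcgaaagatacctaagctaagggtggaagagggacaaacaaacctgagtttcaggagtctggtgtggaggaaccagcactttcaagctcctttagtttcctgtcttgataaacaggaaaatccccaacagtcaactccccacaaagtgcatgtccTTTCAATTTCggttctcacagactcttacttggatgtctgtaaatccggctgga
IFI44, chr1:78649539-78649838, plus strand: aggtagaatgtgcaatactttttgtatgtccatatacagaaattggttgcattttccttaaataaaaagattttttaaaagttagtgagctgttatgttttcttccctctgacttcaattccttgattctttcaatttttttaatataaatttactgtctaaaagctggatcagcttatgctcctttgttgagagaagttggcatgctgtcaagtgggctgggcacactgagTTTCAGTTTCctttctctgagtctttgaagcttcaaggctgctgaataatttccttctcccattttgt
DDX60, chr4:168318703-168319002, minus strand: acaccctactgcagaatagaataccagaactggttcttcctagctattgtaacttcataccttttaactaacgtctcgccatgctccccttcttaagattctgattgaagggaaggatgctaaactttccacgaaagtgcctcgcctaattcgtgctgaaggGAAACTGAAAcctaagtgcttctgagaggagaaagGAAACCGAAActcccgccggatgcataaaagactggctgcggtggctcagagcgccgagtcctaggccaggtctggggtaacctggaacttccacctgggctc
SAMD9L, chr7:93148336-93148635, minus strand: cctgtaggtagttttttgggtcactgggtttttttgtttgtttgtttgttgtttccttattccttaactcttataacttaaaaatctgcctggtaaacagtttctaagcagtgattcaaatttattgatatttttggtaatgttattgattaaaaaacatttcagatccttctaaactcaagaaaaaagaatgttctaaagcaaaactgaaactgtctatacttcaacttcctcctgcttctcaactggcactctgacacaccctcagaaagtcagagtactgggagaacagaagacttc
SAMD9, chr7:93117930-93118229, minus strand: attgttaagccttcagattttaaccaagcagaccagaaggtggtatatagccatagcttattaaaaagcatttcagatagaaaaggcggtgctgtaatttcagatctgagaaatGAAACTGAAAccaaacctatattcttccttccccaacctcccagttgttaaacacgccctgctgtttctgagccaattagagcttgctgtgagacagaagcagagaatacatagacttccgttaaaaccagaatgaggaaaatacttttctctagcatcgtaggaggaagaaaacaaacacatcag
IFITM1, chr11:313790-314089, plus strand: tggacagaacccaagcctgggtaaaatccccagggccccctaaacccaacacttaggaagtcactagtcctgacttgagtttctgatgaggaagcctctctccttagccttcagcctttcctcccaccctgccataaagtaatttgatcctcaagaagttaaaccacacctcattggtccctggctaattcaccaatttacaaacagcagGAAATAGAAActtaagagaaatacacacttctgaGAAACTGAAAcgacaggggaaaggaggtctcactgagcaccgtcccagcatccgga
EIF2AK2, chr2:37156931-37157230, minus strand: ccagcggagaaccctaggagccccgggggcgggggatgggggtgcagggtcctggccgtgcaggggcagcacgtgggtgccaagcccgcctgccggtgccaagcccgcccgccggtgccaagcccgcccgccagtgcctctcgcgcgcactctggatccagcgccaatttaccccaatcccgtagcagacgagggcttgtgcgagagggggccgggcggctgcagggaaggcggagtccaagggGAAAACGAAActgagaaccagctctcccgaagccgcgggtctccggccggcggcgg

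In BST2 a pair of overlapping matches began 130 and 124 bases before the start site, in DDX60 they began 88 and 53 bases before it, and in IFITM1 40 and 6 bases before it. The SAMD9 match began 136 bases upstream, and the SAMD9L window held no match. Of the 24 members that were lower in HSC-1 and had a window, 16 held the core (66.7%). Those without it were HERC6, IFI35, IRF1, IRF9, SAMD9L, SP110, UBE2L6 and XAF1, of which IRF1, IRF9, IFI35 and SP110 held the gamma-activated core. Both members that were higher in HSC-1 held the response element core, as did 3 of the 4 that did not pass.

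**Figure D1:**
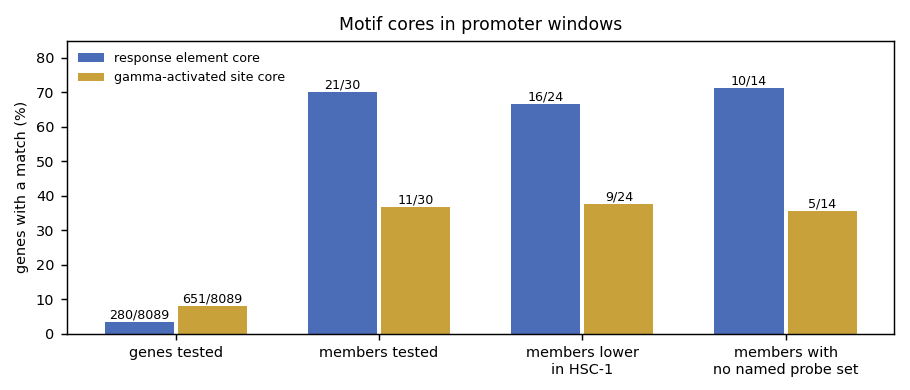
The bars give the percentage of genes with at least 1 promoter window holding each motif core, for all tested genes, the tested members, the members lower in HSC-1 and the members with no named probe set, with counts above the bars. The response element core was in 21 of 30 tested members with a window and in 280 of 8089 tested genes.

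HSC-1 cells with DMSO had lower levels of most of these genes than A431 cells with DMSO. Of the 37 tested members, 31 were lower in HSC-1, 2 were higher and 4 did not pass (limma, adjusted p under 0.05 over all 10613 genes). Over all genes tested 30.2% were called lower and 29.2% higher. The median log2 difference, HSC-1 minus A431, was -0.95 over the members and 0.0048 over all genes. The median level of the tested members was 7.17 to 7.28 on the 3 A431 arrays with DMSO and 5.50 to 5.67 on the 3 HSC-1 arrays. In cultures measured in bulk, fewer cells expressing a gene and less RNA per cell cannot be told apart. The arrays of the lines did not overlap for 31 tested members that were lower and 2 that were higher, against 32.9% and 32.3% of all genes.

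The filter bears on that count, because 11 of the 37 members had fewer than 3 HSC-1 arrays above the median and so passed through A431: IRF7, DDX60, IFIT1, IFIT2, IFIT3, MX2, GBP4, BST2, HERC5, IFI44 and IFI44L. All 11 were called lower, a direction that this way of passing favours. The other 26 had at least 3 arrays above the median in each line. Most of these were lower too, and they held the 2 higher members and the 4 that did not pass. With no level filter all 39 members with a probe set were fitted, and 32 were lower, 2 higher and 5 not past the threshold, where 22% of 14884 genes were called lower and 21.8% higher. The labels give a pair of serum levels for the medium and do not tie them to the lines, so serum and line cannot be told apart if they differed. HSC-1 and A431 are each 1 line, and nothing here extends to other tumours.

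**Figure D2:**
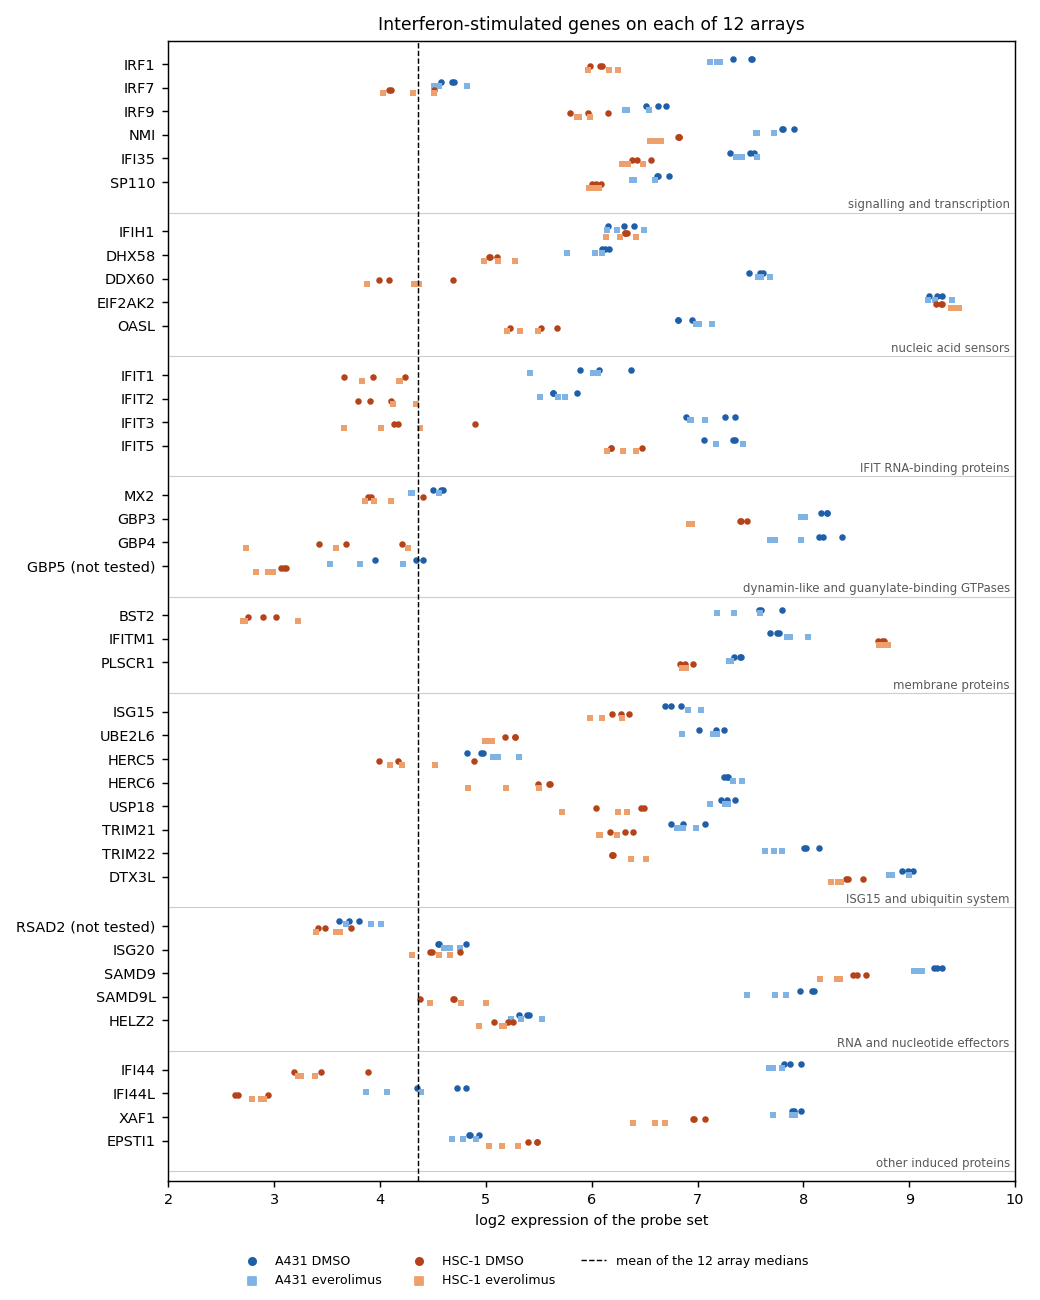
Each point is the log2 level of the gene's probe set on 1 array, with A431 in blue, HSC-1 in red, darker circles for DMSO and paler squares for everolimus, and genes grouped by role. The dashed line is the mean of the 12 array medians. In most rows the HSC-1 points lie to the left of the A431 points, while points of the treatments within a line lie close together.

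Of 6 tested membrane and GTPase members, 5 were lower in HSC-1. Several lay near background there, so that the size of their difference depends on the background and sets no order among them. BST2, or tetherin, which holds budding virus particles to the cell surface, had log2 levels of 7.58, 7.80 and 7.60 in A431 with DMSO and of 2.89, 2.75 and 3.02 in HSC-1 with DMSO. The groups were far apart and every HSC-1 array was near background. The measured difference was -4.77 ± 0.14 (SE, limma adjusted p = 1.62e-15). GBP4, a guanylate-binding GTPase, read 8.15, 8.18 and 8.37 in A431 and 3.42, 4.21 and 3.68 in HSC-1, where it too was near background. Its measured difference was -4.46 ± 0.25. GBP3, of the same family, was at 7.41, 7.46 and 7.40 in HSC-1 against 8.16, 8.22 and 8.22 in A431, well above the median in both lines, and differed by -0.78 ± 0.05. MX2, a dynamin-like GTPase, differed by -0.48 ± 0.14 (limma adjusted p = 0.00645), with 2 of 3 HSC-1 arrays near background. GBP5 read 4.41, 4.34 and 3.95 in A431 and 3.11, 3.07 and 3.09 in HSC-1 and was not tested.

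IFITM1, which hinders viral fusion with the membrane, went the opposite way. It had levels of 7.75, 7.77 and 7.69 in A431 and 8.74, 8.76 and 8.71 in HSC-1, higher by 1.00 ± 0.05 (limma adjusted p = 5.72e-12). The groups did not overlap. Its near relatives IFITM2 and IFITM3 are similar in sequence, and how far the probe sets separate them was not analysed here: IFITM3 was higher by 0.76 ± 0.08 and IFITM2 had a difference of -0.26 (limma adjusted p = 0.0595). PLSCR1, a phospholipid scramblase, was lower in HSC-1 (-0.50 ± 0.06).

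Among 4 tested members grouped as other induced proteins, 3 were lower and 1 was higher. IFI44 read 7.97, 7.88 and 7.81 in A431 and 3.88, 3.44 and 3.19 in HSC-1, all near background, a measured difference of -4.38 ± 0.13. IFI44L, its neighbour and paralogue, read 4.73, 4.81 and 4.35 in A431 and 2.63, 2.95 and 2.66 in HSC-1 (-1.88 ± 0.16), with 1 A431 array also near background. XAF1, which binds the apoptosis inhibitor XIAP, differed by -0.93 ± 0.08. EPSTI1, a gene first known from breast cancer stroma, was higher in HSC-1, at 5.40, 5.48 and 5.48 against 4.84, 4.93 and 4.85 (0.58 ± 0.11, limma adjusted p = 9.24e-05). EPSTI1 and IFITM1 were the members called higher.

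All 4 IFIT genes, whose proteins bind viral RNA, were lower in HSC-1. IFIT3 read 7.36, 7.26 and 6.89 in A431 and 4.13, 4.90 and 4.17 in HSC-1 (-2.77 ± 0.19), IFIT1 differed by -2.17 ± 0.18 and IFIT2 by -1.78 ± 0.12. IFIT1 and IFIT2 lay near background on all 3 HSC-1 arrays and IFIT3 on 2. IFIT5, at 6.28 ± 0.17 in HSC-1 and 7.25 ± 0.16 in A431 (SD, n = 3), was above the median on all arrays and differed by -0.97 ± 0.10.

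The sensors of viral nucleic acid were uneven. DDX60, a helicase linked to RNA sensing, read 7.62, 7.59 and 7.48 in A431 and 4.0, 4.09 and 4.69 in HSC-1 (-3.31 ± 0.15), with 2 of 3 HSC-1 arrays near background. OASL, an oligoadenylate synthetase-like protein, differed by -1.38 ± 0.10 and DHX58, the RNA helicase LGP2, by -1.07 ± 0.10. IFIH1, the RNA sensor MDA5, read 6.30, 6.40 and 6.15 in A431 and 6.34, 6.32 and 6.31 in HSC-1, and the groups overlapped (0.04 ± 0.10, limma adjusted p = 0.775). EIF2AK2, the kinase PKR that halts translation, also overlapped, at 9.26, 9.31 and 9.19 against 9.30, 9.31 and 9.26 (0.04 ± 0.05, limma adjusted p = 0.576). These 2 genes held the response element core, IFIH1 3 times in its window.

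All 8 genes of the ISG15 and ubiquitin system were lower in HSC-1. ISG15 itself read 6.84, 6.75 and 6.70 in A431 and 6.20, 6.28 and 6.36 in HSC-1, a difference of -0.49 ± 0.08. UBE2L6, the conjugating enzyme for ISG15, differed more, by -1.90 ± 0.09, as did HERC6, a relative of the human ISG15 ligase HERC5, by -1.70 ± 0.12. HERC5 differed by -0.57 ± 0.18, with the arrays of the lines overlapping, and without HSC-1 DMSO replicate 2 the call was lost (limma adjusted p = 0.0765, lowest 7.7e-05 over its alternatives). USP18, which removes ISG15 and dampens receptor signalling, differed by -0.95 ± 0.13, the ubiquitin ligase TRIM21 by -0.60 ± 0.09, and DTX3L, the partner of PARP9, by -0.52 ± 0.06. TRIM22, an antiviral member of the tripartite motif family, differed by -1.86 ± 0.06.

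All 6 signalling and transcription members were lower in HSC-1 too, and 5 of them lay above the median on all arrays. IRF1 read 7.52, 7.51 and 7.33 in A431 and 5.98, 6.08 and 6.10 in HSC-1 (-1.40 ± 0.08, 2.63-fold). IRF9, the DNA-binding part of the factor downstream of type I interferon, differed by -0.64 ± 0.10. NMI and IFI35, which bind each other, differed by -1.02 ± 0.06 and -0.99 ± 0.08, and the nuclear body protein SP110 by -0.62 ± 0.08. IRF7, which drives interferon alpha genes, was near background on 2 of 3 HSC-1 arrays (-0.42 ± 0.15, limma adjusted p = 0.0189). The IRF7 call was lost without A431 DMSO replicate 3 (0.0527) and without HSC-1 DMSO replicates 1 (0.0783) and 2 (0.0840), in a range of adjusted p from 0.0037 over its alternatives.

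Among RNA and nucleotide effectors, SAMD9L, a growth-restraining antiviral factor, read 8.10, 8.08 and 7.96 in A431 and 4.70, 4.38 and 4.69 in HSC-1 (-3.46 ± 0.12, 11.0-fold lower). Its neighbour SAMD9 read 9.26, 9.31 and 9.24 against 8.50, 8.47 and 8.60 (-0.75 ± 0.05). Both were above the median in both lines, but SAMD9L only just so in HSC-1. On HSC-1 DMSO replicate 2 it read 4.377 against an array median of 4.376, so background may limit its difference too. ISG20, an RNA exonuclease (-0.07 ± 0.13, limma adjusted p = 0.679), and the helicase HELZ2 (-0.19 ± 0.11, limma adjusted p = 0.142) did not pass, though the arrays of the lines did not overlap for HELZ2. RSAD2, the antiviral enzyme viperin, lay near background on all 12 arrays, from 3.40 to 4.01.

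**Figure D3:**
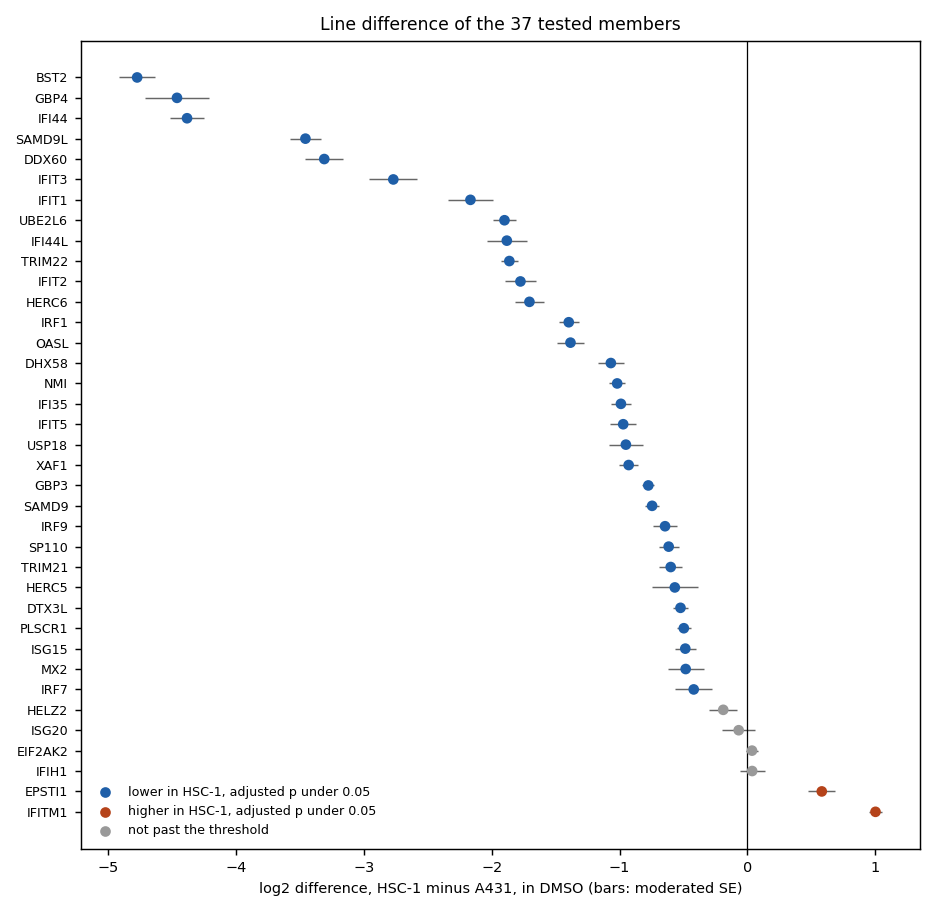
Points give the log2 difference between HSC-1 and A431, both with DMSO, for each of the 37 tested members, in order of size, with the moderated standard error as bars. Blue points are called lower in HSC-1 (31), red points higher (2) and grey points did not pass (4). BST2 is at -4.77 and IFITM1 at 1.00.

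Members that lie next to each other in the genome, with no protein-coding gene between their starts, differed between the lines by unequal amounts. For SAMD9 and SAMD9L the log2 differences lay 2.71 apart, and for IFI44L and IFI44 2.50 apart. The gaps were 1.19 for IFIT1 and IFIT5, 1.14 for HERC6 and HERC5 and 0.99 for IFIT2 and IFIT3. These gaps set different probe sets beside each other and were not tested. A member near background in HSC-1 has a difference that the background limits, as for IFI44L, and SAMD9L lay only just above the median there.

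**Figure D4:**
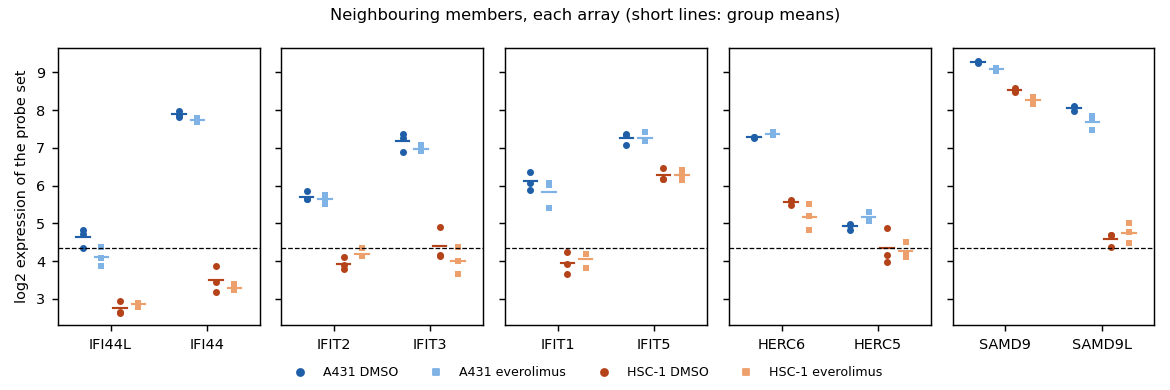
Log2 levels of both genes of each neighbouring pair on every array, with short lines at the group means and a dashed line at the mean of the array medians. The HSC-1 points of SAMD9 lie near 8.5 and those of SAMD9L near 4.6, while in A431 with DMSO the means are 9.27 and 8.05.

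The rest of the interferon pathway was measured beside the members. Of 95 further genes in 6 lists, 50 had a probe set and 47 were tested, of which 20 were lower in HSC-1 (42.6%, against 30.2% of all genes) and 15 higher (31.9%, against 29.2%). The other 12 did not pass, and the median was -0.08. Among receptors, kinases and STATs 4 of 6 were higher, with STAT3 (0.53 ± 0.04), IFNGR1 (0.28 ± 0.07), TYK2 (0.27 ± 0.09) and JAK1 (0.18 ± 0.05), and 2 were lower, JAK2 (-0.52 ± 0.13) and IFNGR2 (-0.43 ± 0.08). The TYK2 call was lost without A431 DMSO replicate 2 and without HSC-1 DMSO replicate 3, with adjusted p from 0.0049 to 0.0928 over its alternatives. Of 14 sensors and adaptors 7 were lower, led by the RNA receptor TLR3 (-2.30 ± 0.09), the DNA sensor AIM2 (-1.89 ± 0.14) and RIGI (-0.86 ± 0.09), and 4 were higher, led by the adaptor TICAM1 (0.85 ± 0.11). Of 3 feedback regulators SOCS3 was higher (0.68 ± 0.11) and the others did not pass. Of 5 antigen presentation genes 3 were lower, among them B2M (-0.41 ± 0.05), and the peptidase ERAP2 was higher (1.37 ± 0.08). Of 19 other interferon-stimulated genes 8 were lower, led by RTP4 (-3.26 ± 0.17), RNF213 (-2.44 ± 0.05) and WARS1 (-2.02 ± 0.06), and 5 were higher. None of the 10 interferon genes listed had a named probe set, and the type I receptor genes IFNAR1 and IFNAR2 had none either.

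Everolimus changed few of these genes in A431, and by small amounts. Of 37 tested members, 5 fell (13.5%), 1 rose and 31 did not pass, where 4.33% of all genes fell and 2.39% rose. The median difference, everolimus minus DMSO, was -0.08 over the members and -0.0038 over all genes, and each member's difference was below 1.5-fold, between -0.52 and 0.25. TRIM22 had the largest fall, from 8.03, 8.14 and 8.0 with DMSO to 7.80, 7.64 and 7.72 with everolimus (-0.34 ± 0.06, limma adjusted p = 0.00281). The groups did not overlap, and 13.5% of all genes were likewise lower without overlap. The TRIM22 call was kept in all 21 alternatives, up to a limma adjusted p of 0.0268. IRF1 went from 7.52, 7.51 and 7.33 to 7.18, 7.12 and 7.22 (-0.28 ± 0.08, limma adjusted p = 0.0401). NMI fell by 0.23 (-0.23 ± 0.06, limma adjusted p = 0.0323), GBP3 by 0.20 (-0.20 ± 0.05, limma adjusted p = 0.0134) and SAMD9 by 0.19 (-0.19 ± 0.05, limma adjusted p = 0.0334). IFITM1 rose, from 7.75, 7.77 and 7.69 to 7.87, 7.84 and 8.04 (0.18 ± 0.05, limma adjusted p = 0.0423).

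The count of 6 called members in A431 fell whichever A431 array was left out. It was 2, 1 and 3 when DMSO replicates 1, 2 and 3 of A431 were left out, and 2, 3 and 4 when everolimus replicates 1, 2 and 3 were. The IRF1 call was lost without A431 DMSO replicates 1 (0.158) and 2 (0.154) and without each A431 everolimus array (0.0985, 0.146 and 0.0604 for replicates 1, 2 and 3), the lowest adjusted p being 0.0203. The NMI call was lost without DMSO replicates 1 (0.153), 2 (0.0614) and 3 (0.0590) and everolimus replicates 1 (0.136) and 2 (0.132) of A431, in a range from 0.0126. The SAMD9 call was lost without the same arrays, at 0.0855, 0.135, 0.0548, 0.124 and 0.0967, in a range from 0.0090. The GBP3 call was lost without A431 DMSO replicates 2 (0.0640) and 3 (0.0522), in a range from 0.0094. The IFITM1 call was lost in 13 of 21 alternatives, among them those without A431 DMSO replicates 1 (0.0927), 2 (0.0756) and 3 (0.141), A431 everolimus replicates 1 (0.0609) and 3 (0.172), HSC-1 DMSO replicates 1 (0.0601), 2 (0.0568) and 3 (0.0536) and HSC-1 everolimus replicate 2 (0.0570), in a range from 0.0099.

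BST2, GBP4 and SAMD9L did not pass in A431. BST2 had 7.18, 7.35 and 7.59 with everolimus (-0.29 ± 0.14, limma adjusted p = 0.284), GBP4 had 7.97, 7.73 and 7.69 (-0.43 ± 0.25, limma adjusted p = 0.385), and SAMD9L had 7.73, 7.47 and 7.83 (-0.37 ± 0.12, limma adjusted p = 0.0848). The GBP4 and SAMD9L arrays with everolimus lay below all 3 with DMSO, as did those of 13.5% of all genes. GBP4 passed as a fall in the fit on the 6 A431 arrays alone (limma adjusted p = 0.00399), in a range up to 0.585. SAMD9L passed in that fit and without HSC-1 everolimus replicate 1, in a range of adjusted p from 0.0135 to 0.338. IFI44L, with the lowest difference of all members, had 4.07, 4.39 and 3.87 (-0.52 ± 0.16, limma adjusted p = 0.0560), in a range of adjusted p from 0.0241 to 0.192 over its alternatives. ISG15 (0.19 ± 0.08), OASL (0.19 ± 0.10) and HERC5 (0.25 ± 0.18) had positive differences that did not pass.

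In HSC-1 everolimus lowered 5 of 37 members (13.5%) and raised 1, with 31 not past the threshold. This share was near that of all genes, of which 11.3% fell and 7.34% rose. The median difference was -0.07 over the members and -0.02 over all genes. GBP3 fell most, from 7.41, 7.46 and 7.40 to 6.92, 6.95 and 6.92 (-0.50 ± 0.05, 1.41-fold, limma adjusted p = 9.28e-07). XAF1 fell from 7.07, 6.97 and 6.96 to 6.59, 6.70 and 6.39 (-0.44 ± 0.08, limma adjusted p = 0.000453). In both genes every everolimus array lay below every DMSO array, as in 19.6% of all genes. HERC6 went from 5.61, 5.60 and 5.50 to 5.50, 5.20 and 4.83 (-0.39 ± 0.12, limma adjusted p = 0.0223), with groups that met at 5.50. SAMD9 fell by 0.25 (-0.25 ± 0.05, limma adjusted p = 0.00215) and NMI by 0.22 (-0.22 ± 0.06, limma adjusted p = 0.0168). TRIM22 rose, from 6.20, 6.20 and 6.19 to 6.52, 6.51 and 6.37 (0.27 ± 0.06, limma adjusted p = 0.00593), and the groups did not overlap. Over all genes 13.7% were higher without overlap.

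The HERC6 call in HSC-1 was lost without HSC-1 DMSO replicates 1 (0.0736) and 2 (0.0645) and HSC-1 everolimus replicates 2 (0.0509) and 3 (0.0997). It was also lost in the fit on 6 arrays alone (0.0811) and without the intensity trend (0.0562), in a range of adjusted p from 0.00072. The NMI call was lost without HSC-1 everolimus replicate 2 (0.0728), in a range from 0.0075. Those of GBP3, XAF1, SAMD9 and TRIM22 were kept in all 21 alternatives. The members near background in HSC-1 under DMSO, among them BST2, GBP4, IFI44, IFIT1 and IFIT2, were near it with everolimus as well, which limits what a fall could show there. BST2 read 3.23, 2.70 and 2.73 with everolimus (-0.0034 ± 0.14), and IFIT2 4.13, 4.34 and 4.13 (0.26 ± 0.12, limma adjusted p = 0.147). EIF2AK2 had a difference of 0.14 ± 0.05 (limma adjusted p = 0.0577), in a range of adjusted p from 0.0196 to 0.171.

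**Figure D5:**
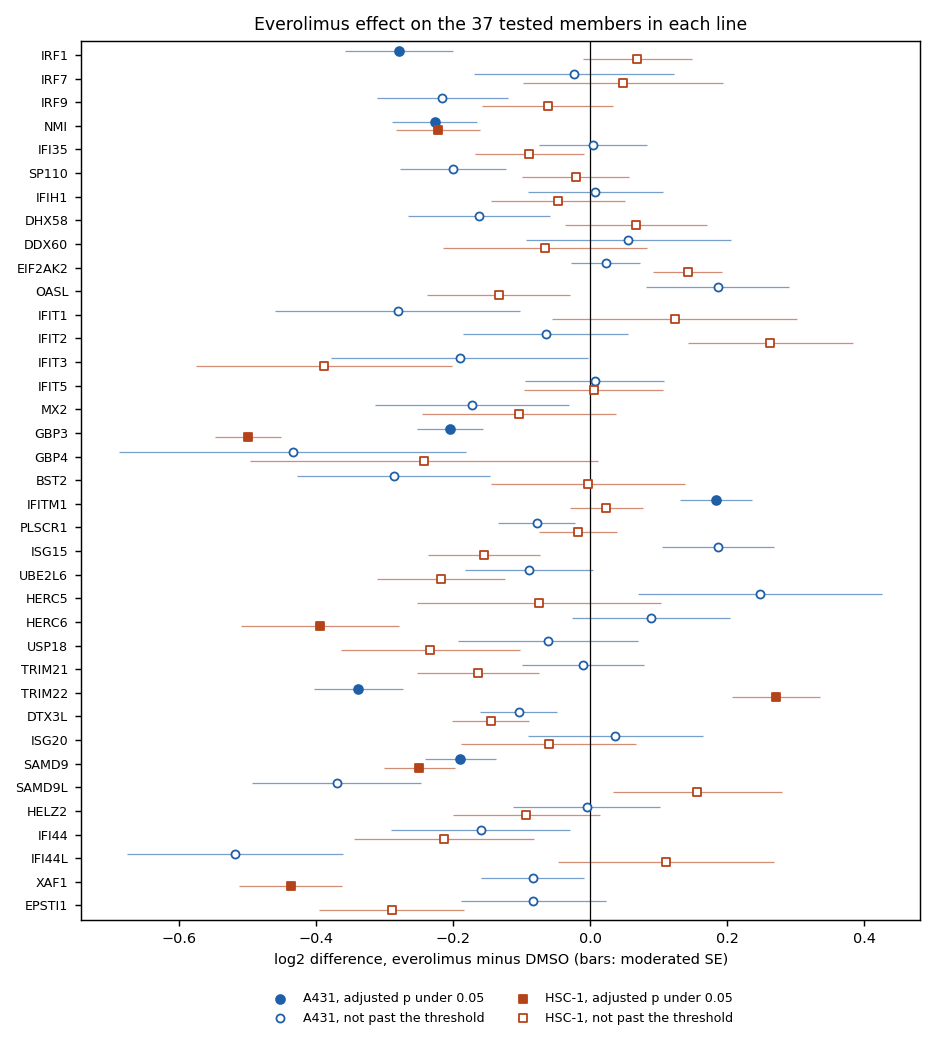
Log2 differences between everolimus and DMSO for each tested member, in A431 (blue circles) and HSC-1 (red squares), with moderated standard errors as bars and filled symbols for an adjusted p under 0.05. All values lie between -0.52 and 0.27. TRIM22 is filled on both sides of 0, at -0.34 in A431 and 0.27 in HSC-1.

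The everolimus effect itself differed between the lines for 3 members, tested as the effect in HSC-1 less that in A431. It was higher in HSC-1 for 1 and lower for 2 of 37, where 4.84% and 5.69% of all genes were. TRIM22 differed by 0.61 ± 0.09 (limma adjusted p = 0.000247) and GBP3 by -0.29 ± 0.07 (limma adjusted p = 0.0087), and both were kept in all 20 alternatives. XAF1 differed by -0.35 ± 0.11 (limma adjusted p = 0.0405). The XAF1 call was lost in 12 of 20 alternatives, at 0.0821, 0.0532 and 0.0864 without A431 DMSO replicates 1, 2 and 3, 0.0938 and 0.0913 without A431 everolimus replicates 2 and 3, 0.103, 0.0607 and 0.0525 without HSC-1 DMSO replicates 1, 2 and 3 and 0.0785 without HSC-1 everolimus replicate 3, in a range from 0.0185. IRF1, called in A431 alone, had a difference between the effects of 0.35 ± 0.11 (limma adjusted p = 0.0551), and HERC6, called in HSC-1 alone, of -0.48 ± 0.16 (limma adjusted p = 0.0669), so neither was shown to differ between the lines. The DMSO arrays enter both the line comparison and the everolimus comparisons, which are therefore not independent. GBP3, NMI, SAMD9 and TRIM22 were called in both lines, the first 3 as falls in each. Over all genes 6.73% were called in A431 and 18.6% in HSC-1, and the share called in both was not counted.

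Everolimus lowered many of the other pathway genes in HSC-1 and few in A431. In HSC-1, 20 of 47 fell (42.6%, against 11.3% of all genes) and 2 rose (4.26%, against 7.34%), with a median of -0.14. Among these HSC-1 calls, those of ERAP2, IFITM3, IRF2, RNF213, TRIM5, TRIM14 and TRIM25 were each lost in several alternatives. For RNF213 the limma adjusted p was 0.172 without HSC-1 everolimus replicate 1. In A431, 4 of 47 fell (8.51%, against 4.33%) and 1 rose (2.13%, against 2.39%), with a median of -0.03. The difference between the effects itself passed for 5 of the 47, all with a lower effect in HSC-1 (10.6%, against 5.69% of all genes). None passed with a higher effect, against 4.84% of all genes. Of 19 other interferon-stimulated genes 10 fell in HSC-1, among them SLFN11, a DNA damage response factor (-0.68 ± 0.09), its relative SLFN5 (-0.41 ± 0.07) and SAT1, of polyamine breakdown (-0.37 ± 0.06), and SP100, a nuclear body protein, rose by 0.33 ± 0.07. WARS1, the tryptophan tRNA synthetase, fell by 0.32 (-0.32 ± 0.06), and did not pass when its probe sets were averaged (limma adjusted p = 0.0501, lowest 0.00017). Of 14 sensors and adaptors 6 fell in HSC-1, among them AIM2 (-0.57 ± 0.14), the adaptor MYD88 (-0.48 ± 0.08), TLR3 (-0.44 ± 0.09) and RIGI (-0.37 ± 0.09). CD274, the checkpoint ligand PD-L1, fell by 0.72 in HSC-1 (-0.72 ± 0.10). STAT3 fell in both lines, by 0.22 ± 0.04 in A431 and 0.19 ± 0.04 in HSC-1, and IFNGR1 fell in HSC-1 (-0.28 ± 0.07).

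In A431 the falls were SAT1 (-0.52 ± 0.06), TLR3 (-0.38 ± 0.09), TRIM5 (-0.28 ± 0.07) and STAT3, and CXCL11, a chemokine, rose by 0.54 ± 0.11 (limma adjusted p = 0.00634). The TLR3 call was lost without A431 DMSO replicates 1 (limma adjusted p = 0.0593) and 2 (0.0623) and A431 everolimus replicate 2 (0.0916), in a range from 0.0021. The TRIM5 call was lost without A431 DMSO replicates 1 (0.0822) and 3 (0.0793) and A431 everolimus replicates 2 (0.0774) and 3 (0.0558), the lowest adjusted p being 0.0154. With a replicate block within each line the calls of TLR3 (0.0532) and TRIM5 (0.0587) were lost as well.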

How the data were processed

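Total RNA of 12 samples was hybridised to Affymetrix whole-transcript arrays. The authors deposited log2 expression per probe set, with RMA and Expression Console named in the submitters' processing notes. Software versions, genome build and the level of summary (gene or exon) are not stated in those sources, and RMA hides changes in total RNA per cell. Members and lists were chosen with earlier results of these data known. Of 53617 probe sets, 16098 had 1 gene symbol each, all matched by Entrez identifier to RefSeq GRCh38.p14, and the others had none. Each gene took its probe set with the highest mean, and each member had 1. Group means were fitted to all 10613 tested genes with limma 3.58.1 in R 4.3.3 (lmFit, then eBayes with a trend on intensity; 8 residual df) with Benjamini-Hochberg adjustment at 0.05, after the procedure was tested on simulated data. The number of arrays limits the precision. Alternatives were a replicate block, other filters, variance priors and scalings, a fit on 6 arrays, averaged probe sets, and fits without each array in turn. The rule for giving genes per array took, for each comparison, up to 4 members rising and 4 falling most past the threshold. It also took the 3 members with the highest mean level (EIF2AK2, SAMD9 and DTX3L, whose levels are not comparable between probe sets) and the most unequal neighbouring pairs. Not all of these are printed per array in the text, DTX3L, NMI and IFIT1 being among those left out. Other members shown per array were chosen after their values were seen. Pathway lists give up to 4 genes, and others are named where a call was lost.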

Additional observations from a re-analysis of the deposited data

Results flagged for a closer look

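The everolimus effect differed between HSC-1 and A431, by the test of the difference itself, for 3 of 37 members and 5 of 47 other pathway genes, where 10.5% of all genes passed in either direction. All 5 pathway genes had a lower effect in HSC-1 (10.6%, against 5.69% of all genes). Given as the log2 effect in HSC-1 less that in A431, the members were TRIM22 at 0.61, GBP3 at -0.29 and XAF1 at -0.35. TRIM22 was lower in all 3 everolimus arrays of A431 and higher in all 3 of HSC-1 than in every DMSO array of the line. Taken singly, 13.5% of all genes were lower in this way in A431 and 13.7% higher in HSC-1. Of the other genes, the DNA sensor CGAS differed by -0.44 ± 0.10 (limma adjusted p = 0.00582), CD274 by -0.75 ± 0.15 (0.00261) and PNPT1, a mitochondrial RNA exonuclease, by -0.49 ± 0.09 (0.00201). SLFN5 differed by -0.36 ± 0.09 (0.0200) and SLFN11 by -0.49 ± 0.13 (0.0228). The SLFN5 call was lost without A431 DMSO replicate 2 (0.0615) and HSC-1 DMSO replicate 1 (0.0601). The SLFN11 call was lost without A431 DMSO replicates 1 (0.0511) and 3 (0.0577), A431 everolimus replicate 3 (0.0569) and HSC-1 DMSO replicate 2 (0.0531). It was also lost with a replicate block within each line (0.0654). Why these effects differ was not tested. Groups of 3 arrays are too small for a search for single outlying arrays.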

How the results depend on the processing

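Between the lines, 28 to 32 members were called lower under the alternatives run, against 31, and 2 higher in each, with a median from -1.02 to -0.90. The lowest count came with the stricter level filter and the highest with no level filter, where 39 members were fitted. The members fitted therefore differed at the ends of that range. In A431 the count of called members moved from 6 to 2 with a replicate block within each line and to 2 without the intensity trend, which also took all genes called from 714 to 438. It ran from 1 to 7 when single arrays were left out, and all genes called from 452 to 838. For the difference between the effects the count moved from 3 to 5 with quantile normalization applied again, and ran from 2 to 5 when single arrays were left out. In HSC-1 the count stayed between 4 and 9. No called gene of the members or pathway lists changed direction. The replicate numbers gave no sign of pairing the samples (correlations of deviations from the group means from -0.15 to 0.07). With 3 arrays a group this does not show that they were unpaired. The block left 6 called members in HSC-1, 2 in the difference and 33 between the lines, and of the 6 in A431 it kept 1. Why calls moved was not tested. With no detection flags, differences of members near background are limited by it.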
